A study of Mus musculus with 32 samples.

Results

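Tumours grown from E0771 cells in Rag1-/- mice were compared between 5 libraries from Ddr1 wild-type cells and 5 from Ddr1 knockout cells, which are 10 of the 32 samples of the series. The libraries were taken by their labels alone, and no measured value entered the choice. The E0771 line was derived from a mammary carcinoma of a C57BL/6 mouse. Rag1-/- mice cannot rearrange antigen receptor genes and so lack mature T and B cells. Both groups share that host strain, and neither received a drug or antibody. The labels do not say how the knockout was made, which knockout derivative of the line gave these tumours, how old the hosts or tumours were, or whether each library came from a separate mouse, so p-values measure the spread between these libraries, which may be technical. The series also holds cultured cells (3 wild-type and 2 knockout libraries) and day 4 tumours moved from Rag1-/- into C57BL/6 hosts (4 wild-type and 5 knockout), which serve here only to set the same knockout contrast beside this one. The cultured libraries are different derivatives rather than repeats of 1 line: the labels call the wild-type ones E0771-P, EV and Ctrl and the knockout ones 3-6 and 3-7. Those tables were normalized separately, so only changes within a table were compared.

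DDR1 is a receptor tyrosine kinase that is bound and activated by collagen, in contrast to most receptor tyrosine kinases, whose ligands are soluble. It is made mainly by epithelial and carcinoma cells, where it takes part in adhesion to and remodelling of the matrix. In a host without T and B cells the remaining immune cells of a tumour are mainly macrophages, dendritic cells, neutrophils and natural killer cells.

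Values are normalized read counts, that is, reads per gene divided by a scaling factor of the library. Depth was 18967300 to 25516204 reads per library. Of 22609 genes in the table, 12795 had a mean of 10 or more and were tested, and a gene is called changed at a Benjamini-Hochberg adjusted p below 0.05. In knockout tumours 1441 genes were higher and 1463 lower, together 22.7% of the genes tested (11.3% higher and 11.4% lower), with a median log2 change of all genes of -0.0035. Most changes were small: 78.8% of the called genes changed by less than 0.5 on the log2 scale, while 130 rises (1.02% of the genes tested) and 30 falls (0.234%) exceeded 2-fold. Leaving out wild-type library 2 reduced the falls to 968. The first principal component, with 35.2% of the variance, separated the groups without overlap, and the second (16.6%) placed knockout libraries 2 and 3 at one end.

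Ddr1 itself was at 3981, 4057, 3778, 3905 and 3645 normalized reads in the wild-type libraries and at 746, 795, 686, 727 and 886 in the knockout libraries. The groups did not overlap and matched their labels, and reads in the knockout libraries remained at 19.8% of the wild-type mean. The log2 change was -2.34 ± 0.064 (SE, n = 5 and 5, adjusted p = 3.88e-11, limma).

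Syt16, a synaptotagmin, from a family of membrane trafficking proteins, was close to absent from wild-type libraries. The 5 wild-type libraries held 2 reads of it in all, with 3 libraries at 0, and the knockout libraries held 869. The ratio of the summed reads was 427, with an exact 95% interval of 118 to 3533 that covers counting error only. The stretch before its annotated start, on chromosome 12, is shown because Syt16 had almost no reads in 1 group and many in the other. Only the longest part of the 250 bases before the RefSeq start that no annotated gene covers is shown, 134 bases. It lies at chr12:73997527-73997660 on the plus strand (RefSeq promoter table, GRCm38.p6), and its 8 CG dinucleotides are in capitals:
Syt16: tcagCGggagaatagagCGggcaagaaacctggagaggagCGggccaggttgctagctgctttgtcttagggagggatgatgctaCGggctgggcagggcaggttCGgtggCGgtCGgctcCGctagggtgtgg
Over the full 250 bases before the RefSeq start, Syt16 has 30 CG dinucleotides, most of them outside the stretch shown. That count is above the count of 94.1% of the 32851 promoters in the table, whose median is 6. This is a description of the letters, and DNA methylation was not measured.

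Tex19.2, a gene of germ cells and placenta, was at 9.77, 9.24, 28.5, 16.4 and 34 normalized reads in the wild-type libraries and at 296, 239, 371, 267 and 306 in the knockout libraries. Every knockout library was far above every wild-type library, with a log2 change of 4.01 ± 0.31 (SE, adjusted p = 3.25e-06). Its neighbour and close copy Tex19.1 was at 3875 ± 221 (SD, n = 5) in wild type and at 3450 ± 144 in knockout tumours, a log2 change of -0.17 (adjusted p = 0.0239). The Tex19.1 call was lost without wild-type library 2 or 3 or knockout library 4 or 5 (adjusted p from 0.0509 to 0.0598, limma) and with the trend of GC and length removed (0.145). Reads of near-identical copies can be assigned to either gene, so the split between the pair is uncertain. Greb1, a gene best known as induced by oestrogen receptor, ranged from 27.3 to 56.1 in wild-type and from 237 to 334 in knockout libraries, and its log2 change was 2.85 (adjusted p = 1.41e-06).

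Several other large rises were in genes of transport, signalling and the cytoskeleton. Slc9a2, a sodium-proton exchanger, was at 145, 110, 126, 246 and 134 normalized reads in wild-type libraries and at 1263, 1009, 716, 1106 and 1010 in knockout libraries, a log2 change of 2.77. Wild-type library 4 was the highest of its group and knockout library 3 the lowest of its own. Map2k6, the kinase that activates p38 MAP kinase, ranged from 7.22 to 21.6 in wild type and from 51.5 to 106 in knockout, again lowest in knockout library 3. Chn1, a regulator of the small GTPase Rac, rose by 2.36 on the log2 scale, Hectd2, a ubiquitin ligase, by 2.45, Acpp, a phosphatase, by 2.65 and Rnf165, a ubiquitin ligase of axon growth, by 2.35 (adjusted p from 1.41e-06 to 3.08e-05).

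Lrp2, a large endocytic receptor of absorptive epithelia, was at 43.4, 62.1, 99, 162 and 85.6 in wild type and at 443, 400, 454, 294 and 294 in knockout libraries, a log2 change of 2.16 ± 0.27 (SE, adjusted p = 0.000145). Myo18b, a myosin of striated muscle, was at 459, 340, 241, 423 and 421 against 1211, 1611, 1679, 2053 and 1740, a log2 change of 2.15 ± 0.16 (adjusted p = 3.25e-06). Myo18b was not high in wild-type library 1 and knockout library 5 alone, the pair of libraries in which skeletal muscle markers were high. The remaining rises named by size were Ggt7, of the gamma-glutamyltransferase family (log2 change 2.08), Ngef, a guanine nucleotide exchange factor of ephrin signalling (2.06), Atg9b, an autophagy protein (1.94), and Arsj, a sulfatase (1.90), each with groups that did not overlap. Ggt7, Ngef and Atg9b overlap Acss2, Neu2 and Nos3 on the opposite strand; the library kit keeps strand, but the counting setting is not given in the sources used here.

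Over the 130 rises above 2-fold, whose median log2 change was 1.39, the libraries were not interchangeable. Wild-type library 4 was the highest wild-type library in 71 of them, against 4 to 24 for each of the others, and knockout library 3 was the lowest knockout library in 49 and knockout library 5 in 38. In 109 of the 130 the groups still did not overlap, beside 936 of all 1441 called rises and 1918 of the 12795 genes tested. The 130 were picked by the same values, so this share describes them and is no separate test.

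**Figure D1:**
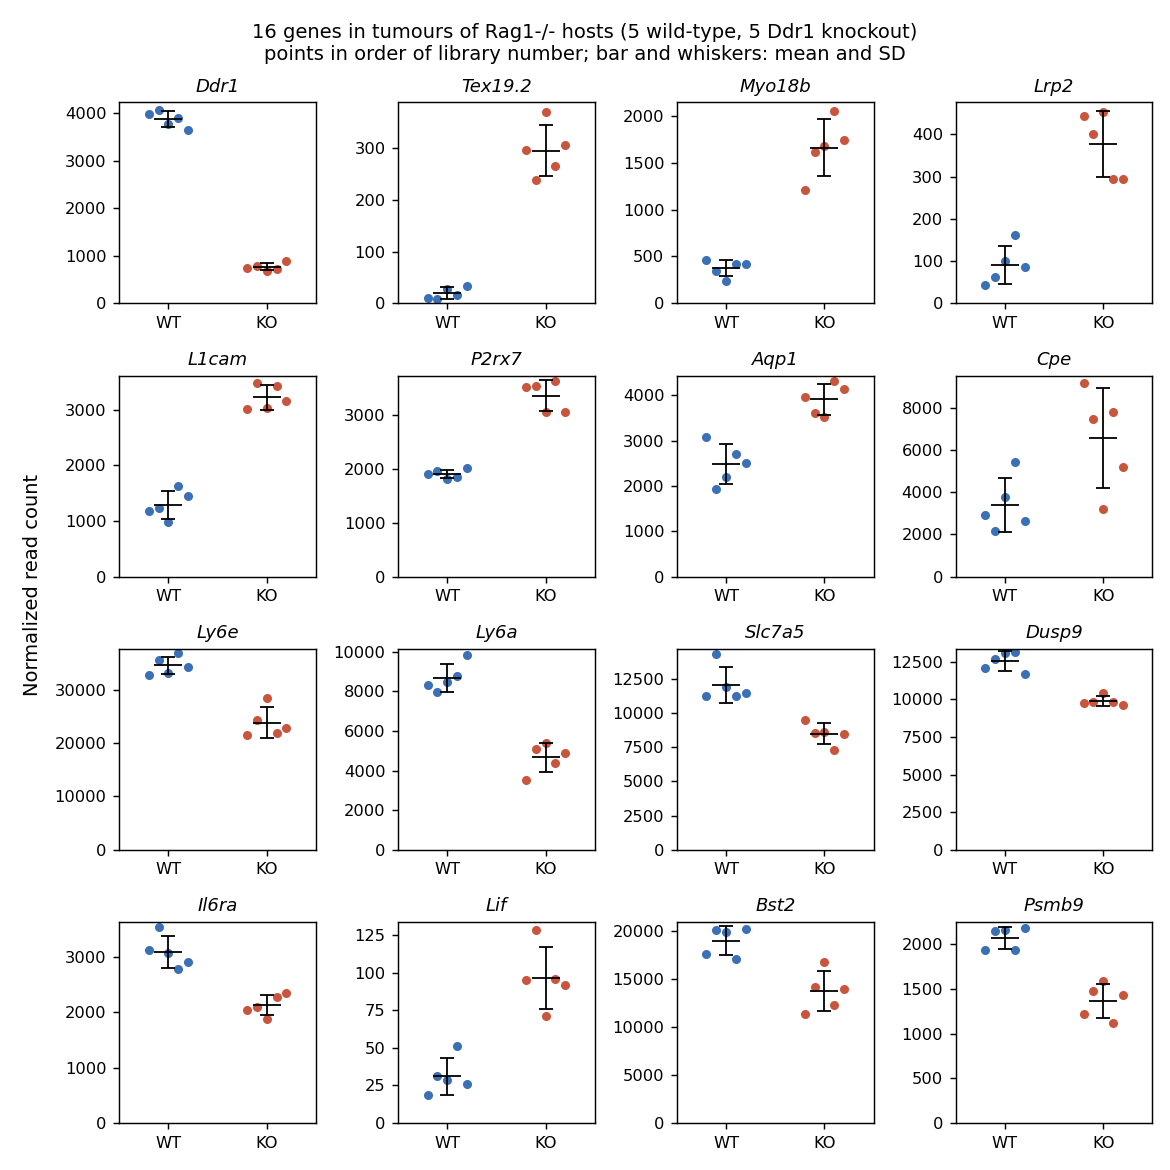
Normalized read counts (vertical axis, from 0) of 16 genes in the 5 wild-type (blue) and 5 knockout (red) libraries, in order of library number, with mean and SD. Ddr1 stays between 686 and 886 in knockout libraries, L1cam between 3013 and 3489, and Cpe overlaps between the groups because wild-type library 4 is at 5420 and knockout library 3 at 3198.

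Falls were shallower than rises. Igfbp5, a binding protein that holds insulin-like growth factors in the matrix, was at 255, 208, 381, 325 and 235 in wild-type libraries and at 122, 106, 101, 86.8 and 59.4 in knockout libraries, a log2 change of -1.56 ± 0.20 (SE, adjusted p = 0.000142). Wisp2, a matricellular protein, fell by 1.33 on the log2 scale, and Dpt, the matrix protein dermatopontin, by 1.10. Dpt was at 5829, 6081, 5987, 4419 and 3743 in wild type and at 2385, 2610, 1824, 2756 and 2438 in knockout, so it was abundant in every library and separated the groups. Tmem176b, an ion channel protein known from antigen-presenting cells, had a log2 change of -0.95, and its neighbour Tmem176a one of -0.75 with overlapping groups. The pair overlaps on opposite strands. Cultured E0771 cells made both as well. Their separately normalized means for Tmem176b were 4791 in wild-type and 286 in knockout cultures, and for Tmem176a 2436 and 129.

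Figf, which encodes the lymphatic growth factor VEGF-D, was at 101, 111, 105, 90 and 98 in wild-type and at 52.1, 41.7, 57.7, 59.6 and 58.5 in knockout libraries, a log2 change of -0.90 ± 0.13 (SE, adjusted p = 0.00043). Plac1, a placental gene that many tumours re-express, fell from 62.6 to 106 normalized reads to 34 to 46.8, a log2 change of -0.84. Syt13, another synaptotagmin, had a log2 change of -0.89, opposite in sign to that of Syt16, and Pmp22, a myelin protein also made by fibroblasts, one of -0.88. The groups did not overlap for any of the 4.

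In all, 5 of the 7 tested Ly6 genes of chromosome 15 were lower (71.4%, beside 11.4% of all genes) and none was higher. The 7 were set together after the values were seen, so the share describes them and is no separate test. These genes encode small lipid-anchored surface proteins, and Ly6a is the stem cell antigen Sca-1. Ly6e, a broadly made member, was at 32900, 35560, 33210, 36960 and 34410 in wild-type and at 21520, 24430, 28550, 22020 and 22920 in knockout libraries, a log2 change of -0.54 ± 0.071 (SE, adjusted p = 0.000205). Ly6a was at 8306, 7963, 8491, 8795 and 9839 against 3536, 5105, 5407, 4386 and 4910, a log2 change of -0.91 ± 0.097 (adjusted p = 5e-05). Ly6c1 changed by -0.93, Lynx1, which binds nicotinic receptors, by -0.84, and Ly6c2 by -0.65 with overlapping groups. The Ly6c2 call (adjusted p = 0.0315, limma) was lost in 11 of 23 alternatives, among them edgeR (0.0568), DESeq2 (0.0843) and the omission of wild-type library 1, 2, 3 or 5 or knockout library 1, 2 or 4. Ly6d and Ly6i had log2 changes of -0.93 and -0.65 and were not called (adjusted p = 0.117 and 0.123). Members of the family are similar in sequence and reads may be shared between them. In culture 4 of the 7 genes were tested, with a median log2 change of -1.58, and at day 4 all 7, with a median of 0.09. For Ly6e the difference of the tumour and culture changes was -0.54 and did not pass (adjusted p = 0.0959).

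Several abundant genes changed by at least 0.5 on the log2 scale. P2rx7, the ATP-gated channel, was at 1902, 1971, 1816, 1861 and 2013 in wild type and at 3523, 3545, 3068, 3649 and 3069 in knockout libraries, a log2 change of 0.81 ± 0.058 (SE, adjusted p = 1.81e-06), with a small spread in both groups. Aqp1, a water channel, rose from 2487 ± 440.4 (SD, n = 5) to 3905 ± 338, a log2 change of 0.67. Cxcr7, a scavenging receptor for CXCL12, changed by 0.70, Prrx1, a mesenchymal transcription factor, by 0.69, and Il1rap, the co-receptor of interleukin-1, by 0.50, all with groups that overlapped. Cpe, a peptide hormone processing enzyme, was at 2907, 2153, 3759, 5420 and 2647 against 9171, 7455, 3198, 7785 and 5202, and its call (log2 change 0.94, adjusted p = 0.0234) was lost when any of wild-type libraries 1 and 2 or knockout libraries 1, 2 and 4 was left out (adjusted p from 0.0527 to 0.0668).

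Slc7a5, the large neutral amino acid transporter, was at 11230, 14340, 11880, 11220 and 11490 in wild-type libraries and at 9490, 8533, 8611, 7294 and 8448 in knockout libraries, a log2 change of -0.50 ± 0.076 (SE, adjusted p = 0.000573). Ruvbl2, a chromatin remodelling ATPase, fell by 0.53 on the log2 scale.

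Signalling genes moved in both directions. Of 23 tested genes of ERK feedback, which are induced by and restrain the ERK MAP kinases, 6 were higher and 1 lower. That is 30.4% in all beside 22.7% of all genes, and 18 of the 23 were above 0 (median log2 change 0.15). The 6 rises became 4 without wild-type library 2 or knockout library 1 or 2, and 9 without wild-type library 4 or knockout library 3. Spry4, a Sprouty inhibitor, was at 699, 665, 611, 818 and 692 in wild type and at 1103, 1045, 937, 1085 and 1005 in knockout libraries, a log2 change of 0.57 ± 0.075 (SE, adjusted p = 0.000198). Spry2 changed by 0.56, and the phosphatases Dusp5 and Dusp10 by 0.49 and 0.45, with Spry2 and Dusp5 overlapping between groups. Dusp9, a more abundant phosphatase, changed the other way, from 12540 ± 644 (SD, n = 5) to 9901 ± 315, a log2 change of -0.34. Egfr, the receptor of epidermal growth factor, rose by 0.51 and its ligand gene Hbegf by 0.81.

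Of 54 tested cytokines and receptors 5 were higher and 6 lower, 20.4% in all, near the 22.7% over all genes. Lif, a cytokine of the interleukin-6 family, was at 18.4, 31.1, 28.5, 51.3 and 25.8 in wild-type libraries and at 95.4, 128, 71.1, 96.2 and 91.8 in knockout libraries, a log2 change of 1.66 ± 0.23 (SE, adjusted p = 0.000343). Il6ra, the interleukin-6 receptor, went the other way, at 3128, 3555, 3077, 2789 and 2917 against 2051, 2097, 1886, 2287 and 2347, a log2 change of -0.54 ± 0.071 (adjusted p = 0.000214). Without wild-type library 2 or knockout library 2 or 4, the number of falls in the list was 3.

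In the TGF-beta and BMP list 6 of 36 genes were higher and 8 lower, 38.9% in all beside 22.7% of all genes, with a median of 0.0038. The rises included the ligand Tgfb2, from 40.1 to 77.4 normalized reads in wild type to 99 to 118 in knockout (log2 change 0.96, adjusted p = 0.00167), and both signalling receptors, Tgfbr1 (0.31) and Tgfbr2 (0.45). The falls included the co-receptor endoglin, Eng (-0.31), and the BMP antagonist chordin, Chrd (-0.79). The number of falls was 4 or 5 when wild-type library 1, 2 or 3 or knockout library 2, 3 or 4 was left out. Notch4, a Notch receptor of endothelium, rose from 442 ± 33.3 (SD, n = 5) to 830.2 ± 104.5, a log2 change of 0.90 ± 0.088 (SE, adjusted p = 2.64e-05). Of 29 WNT genes 1 was higher and 5 lower, 20.7% in all and near the share of all genes, with a median of -0.19. The WNT ligands Wnt7b (-0.32) and Wnt5b (-0.48) fell with no overlap of groups, and Tcf7 and Axin2, genes that WNT signalling induces, changed by -0.64 and -0.56 with overlapping groups.

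Among receptor tyrosine kinases 2 of 25 were higher and 4 lower, 24.0% in all beside 22.7% of all genes, and leaving out wild-type library 4 gave 4 rises, wild-type library 2 only 1. Axl, the receptor of Gas6, was at 27690, 24970, 25590, 25000 and 25320 in wild-type libraries and at 19050, 19370, 19010, 19530 and 20980 in knockout libraries, a log2 change of -0.39 ± 0.047 (SE, adjusted p = 0.000102). Ptk7, a co-receptor of planar cell polarity, changed by -0.61 (adjusted p = 0.000198).

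Integrins, the other main class of matrix receptors, had 7 of 20 members higher and 4 lower, together 55.0% beside 22.7% of all genes, with a median of 0.15. Itgb3, the beta chain of the vitronectin receptor, was at 1045, 1155, 944, 1198 and 1140 in wild type and at 1787, 1873, 1333, 1922 and 1783 in knockout libraries, a log2 change of 0.66 ± 0.094 (SE, adjusted p = 0.000379). Itga5, the fibronectin receptor chain, changed by 0.34, Itga7, a laminin receptor chain, by 1.18 and Itgb7, of leukocyte integrins, by 0.70, the last pair with overlapping groups. Itgb5, an alternative partner of the same alpha chain as Itgb3, fell from 2559 ± 304 (SD, n = 5) to 1897 ± 171, a log2 change of -0.43. The 7 rises became 4 when the trend with transcript GC content and length was removed, and the falls became 2 without wild-type library 1.

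In the list of the plasminogen system, which activates matrix-degrading plasmin, 3 of 8 tested genes were higher and none lower (37.5% called, beside 22.7% of all genes). Both activators were among them: Plau, urokinase, was at 1734, 1559, 1676, 1544 and 1599 against 2340, 2644, 2030, 2172 and 2078 (log2 change 0.47 ± 0.068 SE, adjusted p = 0.000423), and Plat, the tissue activator, changed by 1.04 with overlapping groups. The third was Serpinf1 (0.57), an anti-angiogenic serpin that stands in the list but is not a part of plasminogen activation. Mmp13, a collagenase, rose from 718.5 ± 65.3 (SD, n = 5) to 1351 ± 156 (log2 change 0.91, adjusted p = 1.62e-05), while Mmp11, stromelysin-3, fell by 0.45. In laminins and basement membrane 5 of 14 genes were lower and 1 higher (42.9% called). Hspg2, perlecan, was at 32830, 36300, 29650, 29650 and 27560 against 24390, 24620, 22460, 22230 and 27910 (log2 change -0.36, adjusted p = 0.00597), so knockout library 5 overlapped the wild-type range. Agrn, agrin, changed by -0.27 with no overlap. The 5 falls in laminins and basement membrane became 3 when wild-type library 1 or 2 or knockout library 2, 3 or 4 was left out.

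**Figure D2:**
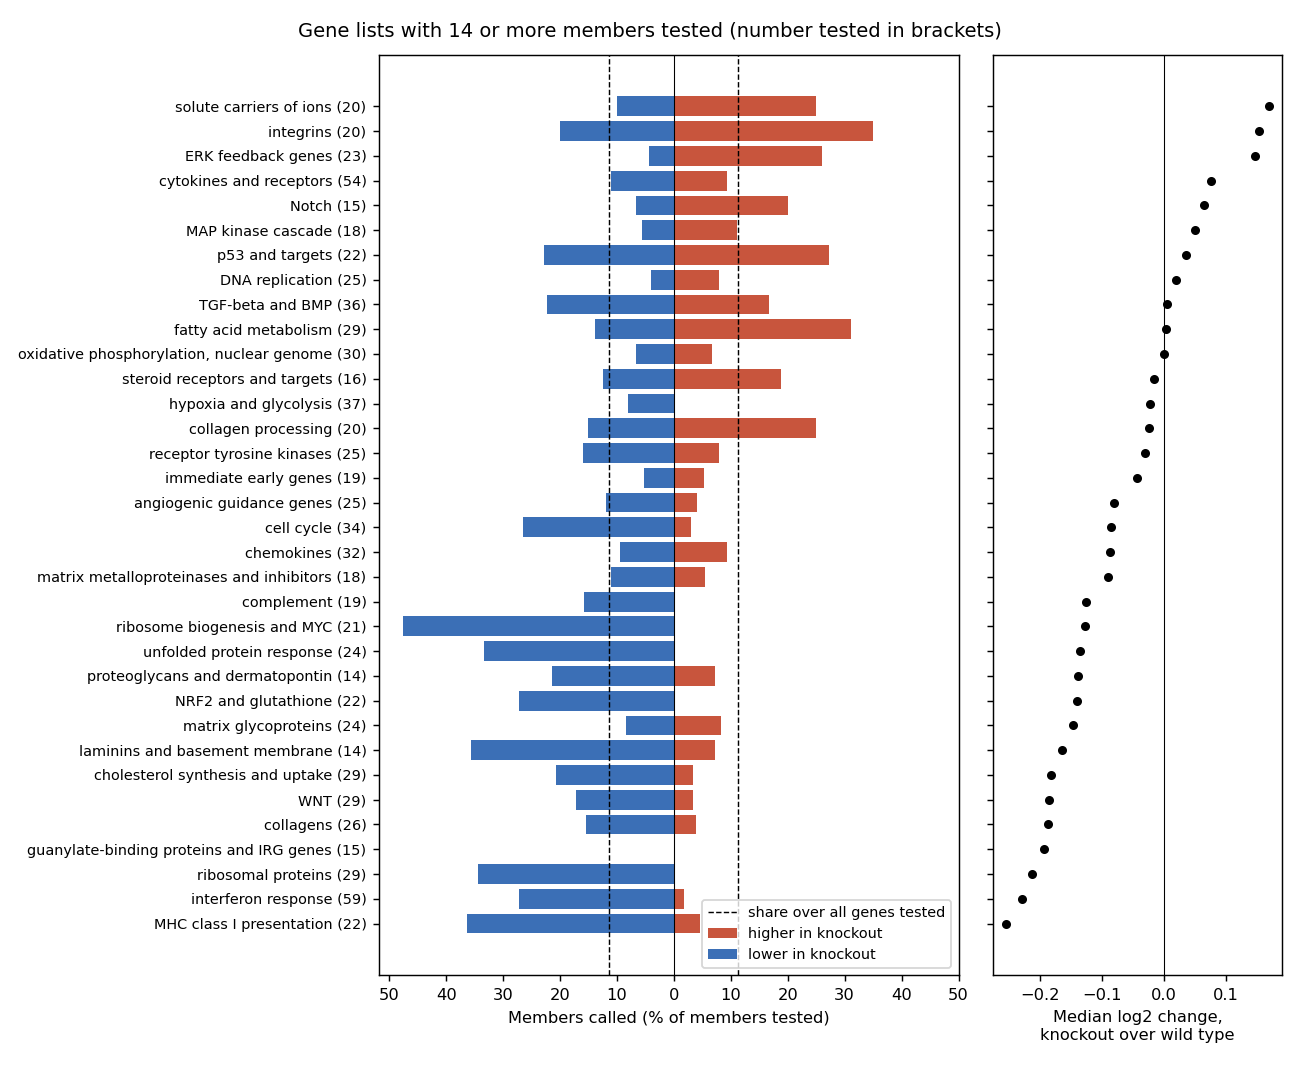
Left, share of tested members of each gene list called higher (red, to the right) or lower (blue, to the left) in knockout tumours, in percent, with dashed lines at 11.3% and 11.4%, the shares over all genes tested. Right, the median log2 change of the members; integrins reach 0.15 and MHC class I presentation -0.26.

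Genes of antigen presentation and interferon response were lower in part. Of 22 tested genes of MHC class I presentation 8 were lower and 1 higher, 40.9% in all beside 22.7% of all genes. In 18 the change was below 0, and the median was -0.26. Psmb9, an immunoproteasome subunit, was at 1930, 2148, 2156, 1937 and 2177 in wild-type and at 1222, 1472, 1589, 1121 and 1433 in knockout libraries, a log2 change of -0.61 ± 0.085 (SE, adjusted p = 0.000313). Tap1, one chain of the peptide transporter, which lies head to head with Psmb9 and overlaps it, changed by -0.47, and Tap2, the other chain, by -0.35. The class I heavy chain genes H2-D1 and H2-K1 changed by -0.30 and -0.27; they are near-identical in parts and their reads may be exchanged. Without knockout library 3 the number of MHC class I presentation genes called lower was 14, and without wild-type library 2 or knockout library 1 or 4 it was 6.

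Of 59 tested genes of the interferon response 16 were lower and 1 higher, 28.8% in all beside 22.7% of all genes. In 54 the change was below 0, and the median was -0.23. Knockout library 3 stood apart: the mean log2 level of the list was 10.7 to 11.1 in wild-type libraries, 10.5 to 10.7 in the other knockout libraries and 11.1 in knockout library 3. Without that library 36 genes of the interferon response were lower. Without any other single library, except wild-type library 4, the count of falls was 7 to 10, and without wild-type library 1 and knockout library 5 together it was 5. Bst2, tetherin, was at 17580, 20060, 19830, 17030 and 20180 against 11370, 14100, 16750, 12270 and 13960, a log2 change of -0.48 ± 0.090 (SE, adjusted p = 0.00238). Ifitm3, which blocks virus entry, fell from 8704 ± 590.1 (SD, n = 5) to 6506 ± 827, a log2 change of -0.43. Irf3, the factor that starts interferon production, changed by -0.42 and Irf8, a factor of the myeloid lineage, was the 1 member that rose, from 598 to 766 normalized reads to 823 to 967 (log2 change 0.49, adjusted p = 0.000487).

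Interferon acts on genes through a response element whose core was searched as GAAA, any 2 bases and GAAA again, on both strands of the 250 bases before each RefSeq start. It was present in 13 of the 47 tested interferon genes with an entry (27.7%), and in 5 of the 12 called lower that have one. In MHC class I presentation 3 of 19 genes held it (15.8%), with 0 of 6 among those called lower, and in steroid receptors and targets 2 of 15 (13.3%). Of all 32851 promoters 2.98% did. A gene counts if any of its entries matches, so its share is not in the same unit as that of single promoters. The stretches are shown for 4 of the 5 interferon genes that were called lower and hold a match, with matches in capitals. Where a gene is on the minus strand the sequence reads 5′ to 3′ on that strand. Bst2 is at chr8:71537473-71537722 (minus strand), Stat2 at chr10:128270248-128270497 (plus), Oas1a at chr5:120907526-120907775 (minus) and Oas1g at chr5:120887614-120887863 (minus), all in GRCm38.p6 and from RefSeq:
Bst2: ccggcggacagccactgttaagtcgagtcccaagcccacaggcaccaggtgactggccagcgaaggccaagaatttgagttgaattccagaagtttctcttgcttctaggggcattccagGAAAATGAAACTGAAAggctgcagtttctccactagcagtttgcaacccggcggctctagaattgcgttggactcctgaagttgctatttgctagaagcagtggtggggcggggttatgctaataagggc
Stat2: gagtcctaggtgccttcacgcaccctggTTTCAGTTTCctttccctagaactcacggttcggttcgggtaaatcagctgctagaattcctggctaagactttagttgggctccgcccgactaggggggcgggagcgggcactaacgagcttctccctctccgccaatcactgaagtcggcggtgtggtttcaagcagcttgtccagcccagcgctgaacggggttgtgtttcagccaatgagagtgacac
Oas1a: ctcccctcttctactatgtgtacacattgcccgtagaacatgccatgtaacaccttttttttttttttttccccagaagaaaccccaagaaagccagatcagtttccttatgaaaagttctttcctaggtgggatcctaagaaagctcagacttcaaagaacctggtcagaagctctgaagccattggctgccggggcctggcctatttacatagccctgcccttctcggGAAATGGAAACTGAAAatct
Oas1g: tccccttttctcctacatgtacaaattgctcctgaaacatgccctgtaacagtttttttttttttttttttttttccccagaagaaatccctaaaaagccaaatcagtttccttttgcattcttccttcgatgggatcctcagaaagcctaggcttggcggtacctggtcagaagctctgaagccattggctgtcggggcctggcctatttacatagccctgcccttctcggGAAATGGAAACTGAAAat
Bst2, Oas1a and Oas1g each hold 2 overlapping matches. Stat2, a factor that carries the interferon signal to such elements, was at 4890, 4196, 4433, 3189 and 4910 in wild-type and at 2757, 2996, 4170, 3027 and 3414 in knockout libraries (log2 change -0.40, adjusted p = 0.0299). Oas1a and Oas1g, close copies that sense double-stranded RNA, changed by -0.45 and -0.44 (adjusted p = 0.0499 and 0.0458). In all 3 the groups overlapped, with knockout library 3 the highest of its group, and their calls were lost with single libraries left out: without wild-type library 1, 2, 3 or 5 or knockout library 1, 2 or 4 the adjusted p of each was above 0.05.

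The levels of immune and stromal cell markers moved among the libraries beside these lists. Macrophage and monocyte markers had 2 of 27 genes higher and 1 lower (4 and 0 without knockout library 1). That is 11.1%, below the 22.7% of all genes called. Their summed levels were 43520 to 51860 in wild type and 40280 to 54460 in knockout. The pair of rises were the scavenger receptors Msr1, with a log2 change of 0.48, and Mrc1, with 0.64 (adjusted p = 0.0019 and 0.00399). Dendritic cell markers had 2 of 9 lower and none higher, 22.2% and near the share of all genes (4 lower without wild-type library 4), with 8 below 0. Their summed levels, which the most abundant markers dominate, were 29540 to 32620 in wild type and 21500 to 27710 in knockout. Their mean log2 level overlapped between the groups, at 7.55 to 7.91 in wild type and 6.68 to 7.67 in knockout. Xcr1 and Clec9a, which define the cross-presenting dendritic cell, were below 10. Natural killer and cytotoxic markers had none of 11 called, and their mean log2 level was highest in knockout library 3, at 6.31 against 5.38 to 6.17 in the other libraries. Fibroblast markers had 1 of 22 higher and 3 lower, 18.2% and below the share of all genes, with 19 below 0 and a median of -0.32. Their summed levels were 64550 to 77890 in wild type against 52810 to 66260 in knockout. The fall was uneven: their mean log2 level was 8.40 to 9.01 in wild type and 7.72 to 9.11 in knockout, with knockout library 2 the highest of all. With single libraries left out the median ranged from -0.49 to -0.13. In bulk tumours fewer cells of a type and less RNA per cell cannot be told apart, and the part of these cells in the interferon, MHC and matrix results was not tested.

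Cd3d, Cd3e, Cd3g, Cd8a and Ms4a1, defining T and B cell genes, were all below a mean of 10 in these tumours, and none of the 3 tested T cell or 4 tested B cell markers was called. Skeletal muscle markers had a mean log2 level of 6.22 in wild-type library 1 and 6.17 in knockout library 5 and of 3.07 to 3.47 in the rest, with none of 11 called. Adipocyte markers ranged from 5.71 to 7.86 in wild type and from 4.89 to 8.29 in knockout, with 1 of 12 called lower, Lipe, which lies in the stretch of chromosome 7 described further on. Without knockout library 2 the falls among adipocyte markers were 7.

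**Figure D3:**
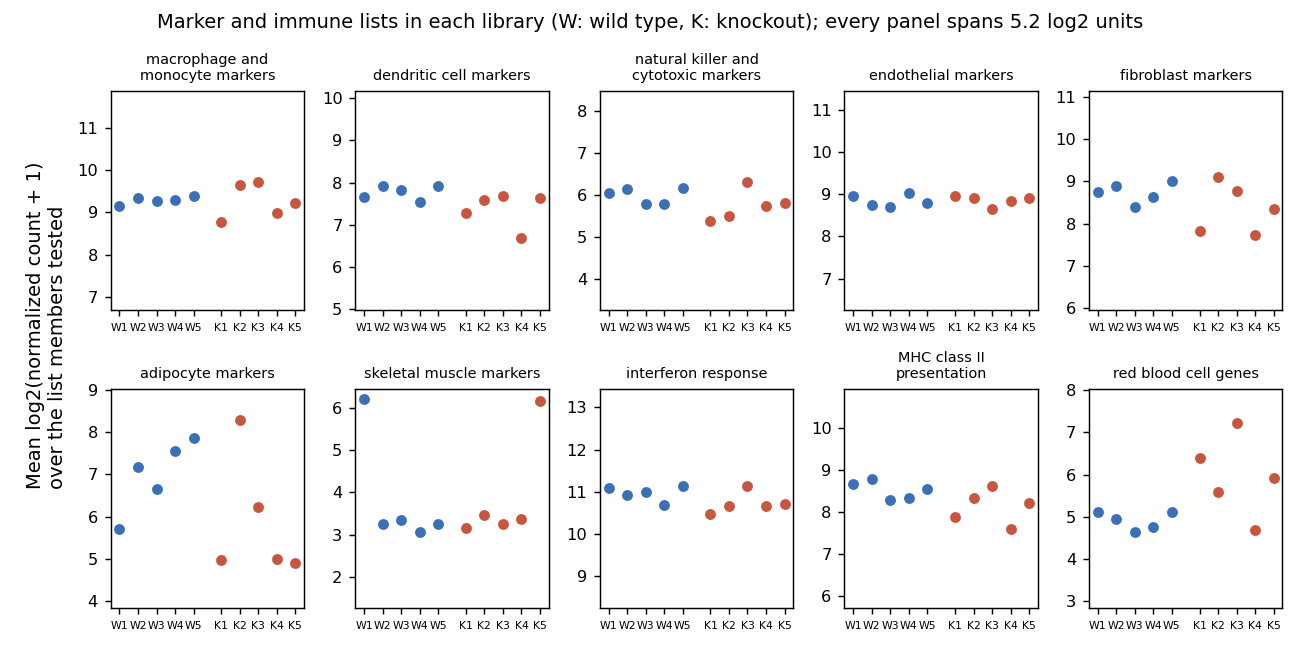
Mean log2(normalized count + 1) over the tested members of 10 lists in each library (W, wild type; K, knockout), each panel spanning the same number of log2 units. Skeletal muscle markers are high in wild-type library 1 (6.22) and knockout library 5 (6.17), and adipocyte markers are highest in knockout library 2 (8.29).

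None of 29 tested ribosomal proteins was higher and 10 were lower (34.5% called, beside 22.7% of all genes), with 28 below 0 and a median of -0.21. None of 21 genes of ribosome biogenesis and MYC was higher and 10 were lower (47.6% called, median -0.13). Among them was Srm, spermidine synthase, at 4340, 4970, 5184, 5371 and 4602 against 4143, 3984, 4044, 3589 and 3406 (log2 change -0.35 ± 0.068 SE, adjusted p = 0.0029). The unfolded protein response had 8 of 24 lower (33.3%) and none higher (3 higher without knockout library 3). The falls included the chaperone Pdia4 (-0.25) and the stress factor Ddit3 (-0.34). Of NRF2 and glutathione genes 6 of 22 were lower (27.3%) and none higher. The falls included the glutathione transferase Gstm1 (-0.73) and Keap1, the inhibitor of NRF2 (-0.27). Without wild-type library 1 and knockout library 5 together, the falls were 4 for ribosomal proteins and 5 for the unfolded protein response, and without wild-type library 3 they were 6 for ribosome biogenesis and MYC.

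Of 34 cell cycle genes 9 were lower and 1 higher, 29.4% in all beside 22.7% of all genes. Cdc20, the activator of the anaphase-promoting complex, was at 3161, 3412, 3316, 3235 and 3249 in wild-type and at 2300, 2478, 2586, 2280 and 2643 in knockout libraries (log2 change -0.42 ± 0.050 SE, adjusted p = 0.000102), and Ccnd3, a D-type cyclin, changed by -0.35. Cdkn1a, the p21 inhibitor of cyclin-dependent kinases, rose from 2567 ± 153 (SD, n = 5) to 3378 ± 262 (log2 change 0.39, adjusted p = 0.000557). It belongs to the p53 and targets list, where 6 of 22 were higher and 5 lower, in all a larger share than the 22.7% of all genes. Bax, a pro-apoptotic target in that list, changed the other way from Cdkn1a, by -0.39. The 5 falls of p53 and targets became 2 or 3 when wild-type library 1, 2 or 3 or knockout library 1, 2, 3 or 4 was left out.

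In cholesterol synthesis and uptake 6 of 29 genes were lower and 1 higher, 24.1% in all and near the 22.7% over all genes (median -0.18). Scap, the sterol sensor that escorts SREBP precursors to the Golgi, changed by -0.28, and the 1 rise was the cholesterol exporter Abca1 (0.46). Without knockout library 3 the falls were 13. In fatty acid metabolism 9 of 29 were higher and 4 lower (44.8% called, median 0.0030). Elovl7, a fatty acid elongase, was at 42.3, 36.1, 42.1, 57.1 and 52.6 against 216, 147, 92.8, 109 and 97.2 (log2 change 1.45 ± 0.22 SE, adjusted p = 0.000552), and Acacb, the mitochondrial acetyl-CoA carboxylase, changed by 1.15. The 9 rises in fatty acid metabolism became 5 when the GC and length trend was removed.

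Of 13 tested luminal epithelial genes 2 were higher and 1 lower, 23.1% in all and near the share of all genes, and the rises were 1 without wild-type library 1 or 5 or knockout library 1, 2 or 3. Epcam, an epithelial adhesion protein, rose from 6.51, 7.56, 11.4, 12.6 and 9.28 normalized reads to 46.8, 49.4, 40.2, 46 and 40.5 (log2 change 2.15 ± 0.21 SE, adjusted p = 3.02e-05), a low level in both groups. Foxa1, the pioneer factor of luminal cells, which stands in the list of steroid receptors and targets, was at 3.87 to 10.2 in wild type and 15.3 to 19.6 in knockout libraries (log2 change 1.17, adjusted p = 0.00769). The 1 luminal gene called lower was Spint2, a protease inhibitor, with a log2 change of -0.42.

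Called genes were unevenly spread over the genome. On chromosome 7 between 15 and 50 Mb (mm10, chosen after the values were seen), 184 of 371 tested genes were lower and 6 higher, 49.6% lower beside 10.3% over all other genes, with 326 below 0 and a median of -0.27. From 50 Mb onward on the same chromosome 57 of 530 were lower and 45 higher (median -0.04). The stretch also had a median of -0.37 in culture (344 genes) and of -0.19 at day 4 (362 genes). Its transcripts were richer in GC (median 55.6%, beside 49.7% elsewhere), and with the trend of GC and length removed 165 of the 371 were still lower, with a median of -0.21. DNA copy number was not measured in these files.

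Many of the named falls lie in that stretch. Tmem145, a membrane protein gene at 25306106 to 25316195, was at 105, 121, 124, 107 and 95.9 in wild-type and at 60.1, 27.4, 35, 46 and 31.5 in knockout libraries (log2 change -1.49 ± 0.19 SE, adjusted p = 0.00017). Prr19 lies just before it, at 25301411 to 25304132, and was at 481, 447, 469, 484 and 392 against 171, 181, 144, 172 and 180 (log2 change -1.42 ± 0.088, adjusted p = 9.61e-07). Cpt1c, a neuronal carnitine palmitoyltransferase, lies further on and changed by -1.13. Axl, Bax, Irf3, Ruvbl2, Spint2, Rps19 (-0.66) and Fbl (-0.41), the last pair of the ribosome and its biogenesis, are also there. Outside the stretch 8 of 26 ribosomal proteins were lower with 25 below 0, and 15 of 58 interferon response genes were lower.

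Rises were concentrated elsewhere. On chromosome 5, 186 of 800 genes were higher (23.2%, beside 11.3% of all genes) and 27 lower (median 0.10). On chromosome 11 between 45 and 80 Mb, also chosen after the values were seen, 118 of 401 were higher (29.4%) and 17 lower (median 0.10). The rest of chromosome 11 had 101 of 688 higher (14.7%) and 74 lower, unevenly spread. There, 30 of 100 genes were higher between 100 and 105 Mb and 15 of 49 between 105 and 110 Mb, so the rises were not confined to the chosen stretch. Chromosome 5 had a median of 0.34 in culture (735 genes) and of -0.03 at day 4 (786 genes).

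**Figure D4:**
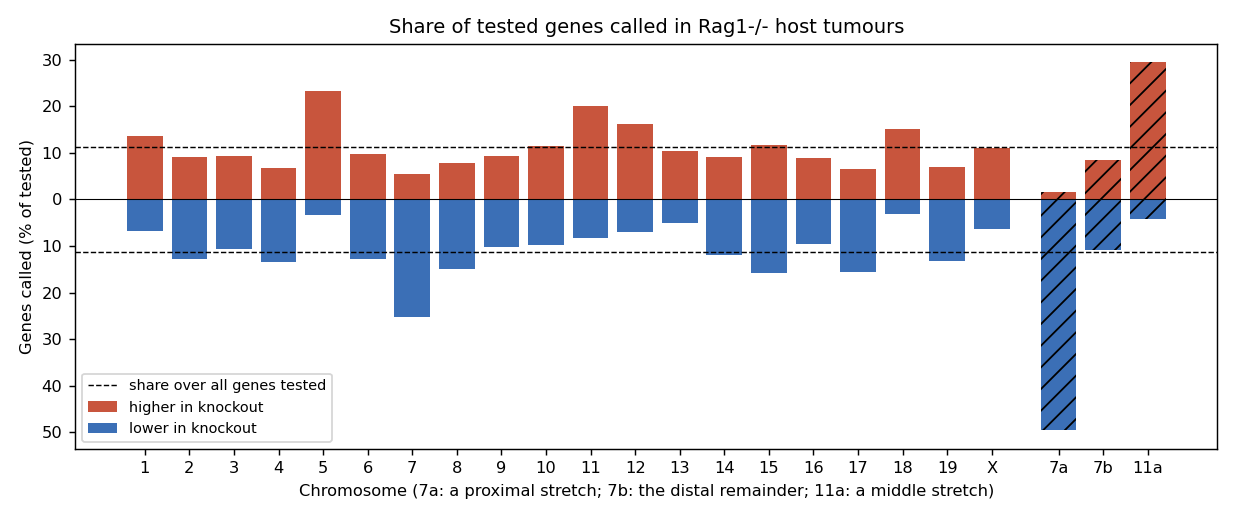
Share of tested genes called higher (red, up) or lower (blue, down) in knockout tumours, in percent, by chromosome and, hatched, for a proximal stretch of chromosome 7 (7a), its distal remainder (7b) and a middle stretch of chromosome 11 (11a). Dashed lines mark 11.3% and 11.4%, the shares over all genes tested; 49.6% of the genes of 7a were lower.

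Genes called higher or lower also differed in base composition. The median transcript GC content was 46.4% for genes that were higher, 54.9% for genes that were lower and 49.4% for the rest, and the median lengths were 4027, 3069 and 3297 bases. With this trend removed from each library, 1158 genes were higher and 1429 lower of 12651.

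The same contrast was set beside its counterparts in culture and in C57BL/6 hosts, which had fewer libraries and fewer calls. In culture 2 of 11911 genes tested were called higher (0.0168%) and 37 lower (0.311%), and at day 4, 1 of 14105 was called higher (0.00709%) and 4 lower (0.0284%). Across the 2838 called genes also tested in culture, Pearson's r of the log2 changes was 0.63 and 78.3% had the same sign, while across the 2861 also tested at day 4 r was 0.15 and 53.9% had the same sign. Over all genes tested in both tables, called or not, r was 0.46 with culture and -0.01 with day 4; genes are not independent replicates, and these values are descriptions. No library is in more than 1 of the tables, although the labels do not say whether the day 4 tumours came from the mice sampled here. Of the 130 rises above 2-fold, 102 of 121 were above 0 in culture (median 0.69) and 64 of 122 at day 4 (median 0.05). Of the 30 falls above 2-fold, 15 of the 16 tested in culture were below 0 there (median -2.98), and 9 of the 25 tested at day 4 were (median 0.44). Igfbp5 and Wisp2 had log2 changes of -2.93 and -2.65 in culture and of 0.90 and 0.33 at day 4.

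**Figure D5:**
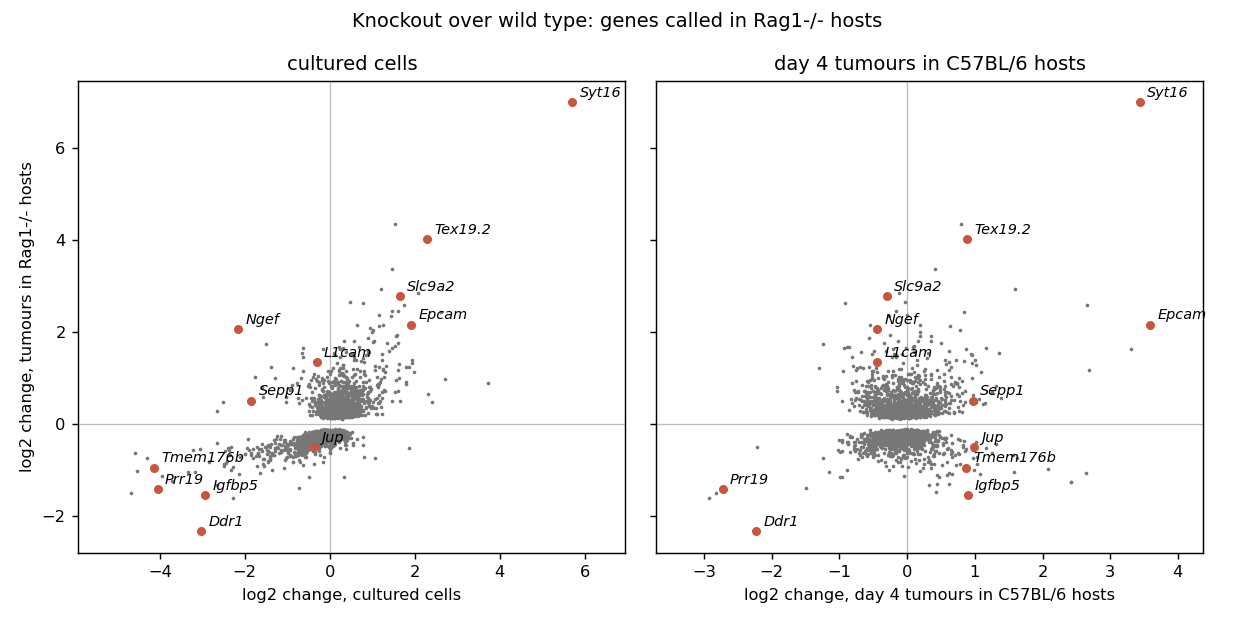
log2 change of each gene called in Rag1-/- host tumours (vertical axis) against its log2 change in cultured cells (left) or in day 4 tumours of C57BL/6 hosts (right), knockout over wild type, with named genes in red. Ngef is at 2.06 in Rag1-/- hosts and -2.16 in culture, and Slc9a2 at 2.77 and, at day 4, -0.30.

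The difference of the knockout effect itself, Rag1-/- hosts minus culture, passed at an adjusted p below 0.05 in 84 of 11486 genes, with 64 (0.557%) more positive and 20 (0.174%) more negative in the tumours. L1cam, a neural adhesion molecule, was at 1170, 1225, 979, 1621 and 1443 in wild-type and at 3013, 3489, 3026, 3419 and 3152 in knockout tumours (log2 change 1.34 ± 0.11 SE), beside -0.31 ± 0.10 in culture, a difference of 1.65 ± 0.15 (adjusted p = 1.08e-05). Ngef differed by 4.22 ± 0.34 (adjusted p = 4.31e-05), with opposite signs in the 2 settings. Sepp1, a selenium carrier, had log2 changes of 0.50 in tumours and -1.84 in culture, Tmem176a of -0.75 and -4.31, and Mfng, a Notch-modifying glycosyltransferase, of -0.25 (not called) and -2.30. The Sepp1 call within the tumours (adjusted p = 0.0303, limma) was lost without wild-type library 1, 2 or 3 or knockout library 2, 3 or 4. Among the differences of negative sign were Wnt7b (-0.32 in tumours and 0.63 in culture) and, with tumour changes near 0 and culture changes of 0.45 to 0.79, Setd8, a histone methyltransferase, Aimp2, Noc4l and 2410131K14Rik. All 4 lie on chromosome 5. With quantile normalization 34 and 2 genes passed, with upper-quartile rescaling 59 and 2.

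Against day 4, the effect in Rag1-/- hosts was more positive for 299 of 12402 genes (2.41%) and more negative for 37 (0.298%). Slc9a2 differed by 3.07 ± 0.31 (SE, adjusted p = 1.65e-05): its mean was 152 in wild-type and 1021 in knockout tumours of Rag1-/- hosts, and 1372 and 1149 in the separately normalized day 4 tumours. Map2k6 differed by 3.55, Tex19.2 by 3.13, Rnf165 by 2.61 and Chn1 by 2.36. For Slc9a2, Map2k6, Rnf165 and Chn1 the day 4 change was 0.01 or below, and for Tex19.2 it was 0.89. Negative differences included Jup, plakoglobin of cell junctions (-0.51 in Rag1-/- hosts and 0.99 at day 4), Acta2, smooth muscle actin (-0.50 and 0.82), Ptk7 (-0.61 and 0.34), Fads1, a fatty acid desaturase (-0.27 and 0.38), and Cacna1a, a calcium channel (-0.61, not called, and 1.53). Within Rag1-/- hosts the Jup call was lost in 7 of 23 alternatives (without wild-type library 1 or 2 or knockout library 1, 2 or 4 among them) and the Fads1 call in 9 (without wild-type library 1, 2 or 5 or knockout library 1, 2 or 4, and with the replicate number as a block, adjusted p = 0.062, limma).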

How the data were processed

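RNA extracted with Trizol was made into libraries with a stranded Illumina TruSeq mRNA kit from about 500 ng, per the labels' protocols; CASAVA, TopHat, DESeq2 and mm10 are named, without versions, in the submitters' processing notes. The authors deposited a signal per gene and library, the read count divided by a library factor; its low values are whole multiples of 1 read within 0.01, so reads could be recovered. The authors' fold changes and p-values were not used. Values were tested with limma 3.58.1 (R 4.3.3) as log2(value + 1), with a mean-variance trend, for genes with a mean of 10 or more, two-sided; a fold change on this scale understates that of low genes. Differences between tables were tested as the difference of the log2 changes over its standard error. Alternatives included edgeR 4.0.16 and DESeq2 1.42.0 on the recovered reads. The script was tested on simulated data.

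Genes named in the text are Ddr1; up to 15 rises and 15 falls of largest change, from those called whose mean is at least 50 and whose groups do not overlap; up to 6 rises and 6 falls of highest level that changed by at least 0.5; up to 5 called members of each pathway list, or 3 of a marker list, of smallest p; and 5 genes per direction of each difference. Tex19.1, Ly6c2, Ly6d, Ly6i, Stat2, Oas1a and Oas1g were chosen after their values were seen. The members and lists were chosen with earlier results of these data known. Genes were placed with GENCODE vM21 (12651 of 12795 tested). Symbols are as deposited. Some genes that the rule names are not reported here. No 2 libraries agreed within sampling noise.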

Additional observations from a re-analysis of the deposited data

Results flagged for a closer look

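Of 240 groups of 5 libraries examined for the genes named, 10 had 1 library far from the other 4. A rate of 1 in 20 would give 12. The genes share the same libraries and many were chosen for groups that do not overlap. The comparison with 12 therefore cannot decide whether chance gave these flags. Wild-type library 4 was at 245.8 for Slc9a2 (others 110 to 145.4) and at 89.01 for Chn1 (46.4 to 56.42). Knockout library 3 was at 144.3 for Prr19 (171.4 to 181.1) and at 1333 for Itgb3 (1783 to 1922). Wild-type library 3 was at 4258 for Tex19.1 (3725 to 3873), wild-type library 2 at 14340 for Slc7a5 (11220 to 11880), and knockout library 4 at 823 for Irf8 (944.5 to 966.7). Wild-type library 1 was at 27690 for Axl (24970 to 25590). Knockout library 5 was at 20980 for Axl (19010 to 19530) and at 544.7 for Jup (323.1 to 371.9).

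The knockout effect differed between Rag1-/- hosts and culture, tested as a difference of log2 changes, for L1cam (1.65), Sepp1 (2.35), Ngef (4.22), Tmem176a (3.56), Mfng (2.05), Wnt7b (-0.95), Setd8 (-0.56), Aimp2 (-0.56), Noc4l (-0.58) and 2410131K14Rik (-0.71). It differed between Rag1-/- hosts and day 4 tumours for Slc9a2 (3.07), Chn1 (2.36), Map2k6 (3.55), Rnf165 (2.61), Tex19.2 (3.13), Jup (-1.50), Acta2 (-1.32), Ptk7 (-0.95), Fads1 (-0.65) and Cacna1a (-2.14).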

How the results depend on the processing

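No called gene named here changed sign in the 23 alternatives to the comparison within Rag1-/- hosts, and of 2757 gene values 2659 stayed on their side of the threshold, 91 lost and 7 gained the call. Leave-one-out fits gave 1016 to 1540 rises and 968 to 1583 falls, and without both libraries high in muscle markers (chosen after seeing the data) there were 977 rises and 958 falls. Replicate numbers do not pair the samples (correlations of same-numbered libraries -0.20 to 0.15); with the number as a replicate block 1222 genes were higher and 1189 lower. Against culture, leave-one-out gave 46 to 94 more positive and 4 to 38 more negative differences; the negative ones numbered 5 without the filter, 2 with upper-quartile or quantile normalization and 3 without the trend, and the positive ones 34 with quantile normalization. The edgeR interaction test gave 263 and 237. Against day 4, leave-one-out gave 253 to 409 and 27 to 75; negative differences numbered 78 without the filter and 138 by the edgeR interaction, which gave 335 positive. The cause of these shifts was not tested. Depth limits genes below a mean of 10, which were not tested.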
